A study of Mus musculus with 7 samples.

Results

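The immediate early genes are the first genes that a cell transcribes after a stimulus. Of the 24328 gene symbols measured in these kidneys, 10 were chosen by name: the AP-1 subunits Fos, Fosb, Jun and Junb, the related factor Atf3, the zinc finger factors Egr1 and Egr2, the early response gene Ier2, and the feedback genes Dusp1 and Zfp36. All 10 were listed in all 7 libraries, and all 10 passed the limit of a mean of 5 normalized counts over the 4 mice that was set for testing. The right kidneys came from mice labelled C57BL/6J, bred from the line C57BL/6J-Lbr ic-J/J, at 4 weeks of age. LBR-null mice were homozygous for the loss-of-function allele of the lamin B receptor gene (genotype Lbr ic-J/ic-J), and the control was a wild-type littermate (WT; Lbr+/+). LBR sits in the inner nuclear membrane and binds lamin B and heterochromatin proteins, and the study asked how its loss changes gene expression. The allele was present in all tissues of the mouse, not in the kidney alone. LBR-null mice 4001 and 4007 gave 2 libraries each, LBR-null mouse 4002 gave 1, and WT mouse 4009 gave 2. The frozen kidneys were pulverized and polyadenylated RNA was sequenced, so all cell types of the organ were measured together.

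Growth factors, mechanical strain, hypoxia, cytokines and tissue injury switch these genes on within minutes, through MAP kinases that act on serum response factor (SRF) with its partners at CArG boxes, and through CREB at cyclic AMP response elements (CRE). No new protein is needed for this first wave, and their mRNAs are short-lived, so the level of an immediate early mRNA follows recent signalling. Several of their products then shut the response down again, Dusp1 by dephosphorylating MAP kinases and Zfp36 (tristetraprolin) by marking mRNAs with AU-rich tails for decay. In the kidney they are known for a fast response to ischaemia and other injury.

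The upstream sequences were searched for letters that match such elements. Whether a match acts in these kidneys was not tested. Promoter windows of 250 bases before the transcription start were listed by RefSeq (build GRCm38.p6) for 8 of the 10 genes, with 5 starts for Egr2 and 12 windows in all. Egr1 and Ier2 had no entry. The sequences below are bases 250 to 49 before the start, shown for the 4 genes whose LBR-null libraries all lay above WT (Junb, Egr2, Dusp1 and Zfp36) and for Fos and Jun, the founding pair of AP-1, whose groups overlapped. Capitals mark matches on either strand to the CRE (TGACGTCA) or its core (TGACG), to the AP-1 site (TGANTCA), to the EGR site (GCGNGGGCG) and to the CArG box. The windows lie at chr8:84978797-84978998 (minus strand) for Junb, chr10:67537316-67537517 (plus strand) for Egr2, chr17:26508521-26508722 (minus strand) for Dusp1, chr7:28379277-28379478 (minus strand) for Zfp36, chr12:85473640-85473841 (plus strand) for Fos and chr4:95052271-95052472 (minus strand) for Jun.
Junb: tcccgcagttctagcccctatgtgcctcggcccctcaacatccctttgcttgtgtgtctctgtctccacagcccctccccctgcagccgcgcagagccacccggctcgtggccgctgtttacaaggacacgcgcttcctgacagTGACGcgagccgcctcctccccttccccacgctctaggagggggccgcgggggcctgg
Egr2: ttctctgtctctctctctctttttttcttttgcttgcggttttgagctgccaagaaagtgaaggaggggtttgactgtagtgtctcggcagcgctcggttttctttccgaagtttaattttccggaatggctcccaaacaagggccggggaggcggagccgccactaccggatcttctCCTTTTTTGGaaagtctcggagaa
Dusp1: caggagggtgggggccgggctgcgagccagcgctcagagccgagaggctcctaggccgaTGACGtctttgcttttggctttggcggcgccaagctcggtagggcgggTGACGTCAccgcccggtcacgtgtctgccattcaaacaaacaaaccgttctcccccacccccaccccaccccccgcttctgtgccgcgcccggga
Zfp36: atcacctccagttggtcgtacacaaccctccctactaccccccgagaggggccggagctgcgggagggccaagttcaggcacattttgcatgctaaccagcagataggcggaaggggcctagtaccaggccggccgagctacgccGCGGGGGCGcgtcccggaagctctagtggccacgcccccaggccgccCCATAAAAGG
Fos: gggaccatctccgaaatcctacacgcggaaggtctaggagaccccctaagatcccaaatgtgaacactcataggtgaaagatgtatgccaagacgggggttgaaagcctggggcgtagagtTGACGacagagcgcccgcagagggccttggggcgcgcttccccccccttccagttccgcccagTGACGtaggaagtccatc
Jun: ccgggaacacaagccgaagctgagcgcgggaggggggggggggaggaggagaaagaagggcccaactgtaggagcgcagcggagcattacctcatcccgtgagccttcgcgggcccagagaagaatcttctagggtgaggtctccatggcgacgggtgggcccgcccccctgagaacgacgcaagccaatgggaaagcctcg

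The CRE core was found in 8 of the 12 windows of 250 bases, against 17.8% of 32851 windows of all genes. They belong to 6 genes (Atf3, Dusp1, Egr2, Fos, Fosb and Junb), and 3 of them are overlapping windows of Egr2, before other starts than the one shown. The whole CRE, a palindrome that also counts as 2 cores, was present in 1 of the 12 windows, that of Dusp1, 143 bases before the start, and in 1.55% of all windows. A CArG box was found in 5 windows, 1 of Zfp36, 58 bases before the start, and 4 of Egr2, which hold 2 sites, 1 of them 72 bases before the start shown and the other shared by 3 overlapping windows, with 1.47% of all windows holding such a match. The EGR site was present in 2 windows, those of Zfp36 and Fosb, against 4.70% of all windows. The AP-1 site was found in none of the 12 windows and in 6.75% of all. None of these motifs was found in the Jun window, which says only that these letters are absent from it. The same holds for the CArG box in the Fos window. Bases farther than 250 before a start were not searched in any gene. All 12 windows had a GC content of at least 50% and an observed over expected CpG ratio above 0.6, limits commonly used for CpG islands (CGI), which were met by 31.0% of all windows. Their CpG ratio ranged from 0.660 to 0.967, against a median of 0.374 over all windows. The CRE, its core and the EGR site contain the letters CG, and their shares were not taken over windows of similar CpG content. CpG islands mattered to the study because it compared genes with and without them.

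The total per library was 20694016 to 26333284 reads, and 1 read was worth 0.787 to 1.15 of the normalized counts deposited by the authors, which are read counts divided by the size factor of the library. Values of the same mouse were averaged, with mice as replicates. With 1 WT mouse the spread among WT mice is not known, and a permutation of 3 mice against 1 cannot go below p = 0.25. The transcript of Lbr itself had 322, 340 and 471 normalized counts in mice 4001, 4002 and 4007 and 398 in the WT mouse, so its level does not check the genotype. The labels give no sex. Xist had 5785, 65.3 and 9940 normalized counts in LBR-null mice 4001, 4002 and 4007 and 35.5 in the WT mouse, whereas the Y chromosome genes Ddx3y and Eif2s3y had 141, 1516, 44.3 and 1284 and 156, 2420, 54.0 and 1477. Mice 4001 and 4007 therefore held reads of both kinds, mouse 4001 with more of the Y chromosome genes, and mouse 4002 was nearest to WT in these genes, so values are given below for each mouse and without each mouse where it matters. Defining genes of the kidney tubule were present in every library, with a sum of 50833 to 71075 normalized counts for the proximal tubule markers Slc34a1, Lrp2, Cubn, Slc5a2 and Aqp1 in the LBR-null libraries and 114286 to 116552 in the WT libraries. In pulverized tissue, fewer cells of a type and less RNA per cell cannot be told apart.

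Most immediate early genes stood higher in LBR-null than in WT kidneys, none passed the test, and the size of the difference varied from mouse to mouse. The mean log2 fold change was above 0 for 8 of the 10 genes, against 50.5% of the 17283 tested genes, and the median over the 10 was 0.60 against 0.01 over all tested genes. In mouse 4002, the LBR-null mouse nearest to WT in Xist and the Y chromosome genes, 6 of the 10 were above WT, against 51% of tested genes. In mice 4001 and 4007, 9 and 8 were above WT, against 50.7% and 50.6%. In Junb, Egr2, Dusp1 and Zfp36 all 5 LBR-null libraries lay above both WT libraries, which is 4 of 10 against 25.5% of tested genes. None had all libraries below WT, against 25.7% of tested genes, and in 6 the groups overlapped. Egr2 alone was at least 2-fold higher on the means, against 14.5% of tested genes, and none was 2-fold lower, against 7.04%. With limma, none of the 10 passed an adjusted p of 0.05 with a 2-fold change. This test called 0% of all genes, with 1852 higher and 1391 lower genes at an unadjusted p under 0.05 (10.7% and 8.05%), and Junb was the only one of the 10 among them. DESeq2 on the recovered reads called 539 genes higher (3.24%) and 578 lower (3.48%), and edgeR called 28 (0.162%), none of them among the 10.

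**Figure D1:**
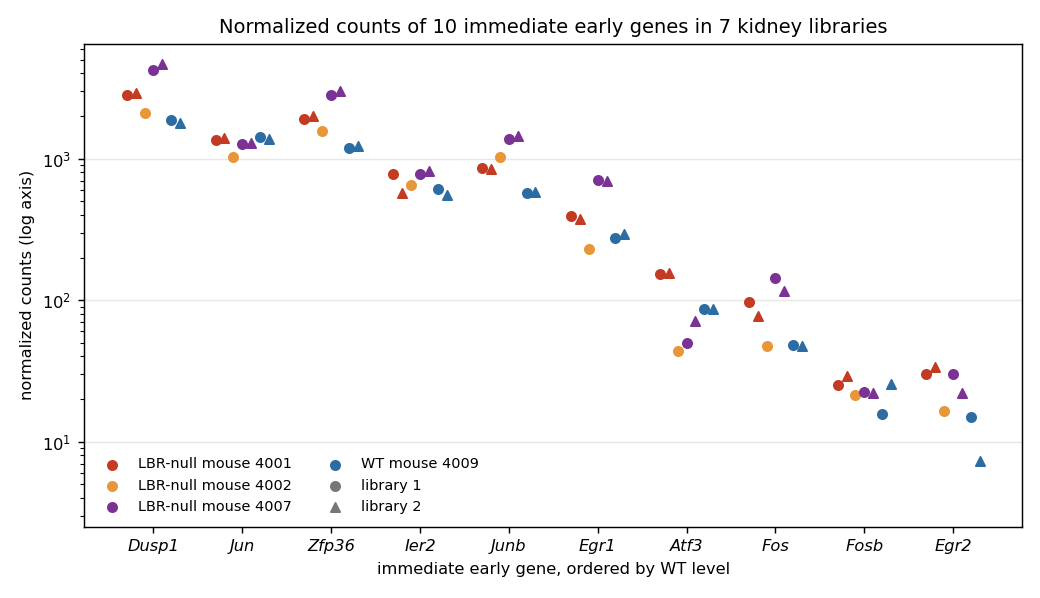
Normalized counts (log axis) of the 10 immediate early genes, ordered by their WT level; each point is 1 library, colours mark the mouse, circles the first and triangles the second library. The LBR-null points of Dusp1, Zfp36, Junb and Egr2 all lie above both WT points, and mouse 4007 stands highest in Dusp1, Zfp36, Junb, Egr1 and Fos.

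AP-1 is a dimer of a Fos and a Jun protein, or of 2 Jun proteins, and of the 4 subunits among the 10 genes Junb was the only one with no overlap between the groups. Junb (ENSMUSG00000052837, mm9 chr8:87500811-87502617, a gene with a single exon) encodes the Jun protein that tempers the activity of Jun in many settings. Its libraries held 863 and 840 normalized counts in mouse 4001, 1020 in mouse 4002 and 1366 and 1456 in mouse 4007, with 567 and 576 in the WT mouse. No LBR-null library came near the WT level. The mean of 1094 ± 287 (SD, n = 3 mice) was 1.91 times the WT value of 572, a log2 fold change of 0.90 ± 0.33 (SE), with an interval from 0.11 to 1.70, an unadjusted p of 0.0315 and a limma adjusted p of 0.213. Junb was also the only one of the 10 genes in which mouse 4002 did not have the lowest LBR-null level.

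Fos (ENSMUSG00000021250, mm9 chr12:86814840-86818223), the best known immediate early gene, was low in all kidneys. It had 96.5 and 77.2 normalized counts in mouse 4001, 47.3 in mouse 4002, 142 and 116 in mouse 4007, and 48.0 and 47.0 in the WT mouse. Mouse 4002 was at the WT level, and both other LBR-null mice were above it in each library. The means were 87.7 ± 40.9 (SD, n = 3 mice) and 47.5, and the log2 fold change of 0.76 ± 0.59 (SE) had an interval from -0.67 to 2.18 and a limma adjusted p of 0.536. Fosb (ENSMUSG00000003545, mm9 chr7:19888070-19895394), a close relative of Fos, was near the limit of what these libraries resolve, with 21.5 to 29.3 normalized counts in the LBR-null libraries and 15.7 and 25.3 in the WT libraries. The groups overlapped, and the WT libraries alone differed by 0.65 on the log2 scale. The means were 23.6 ± 3.17 (SD, n = 3 mice) and 20.5, a log2 fold change of 0.19 ± 0.47 (SE; limma adjusted p = 0.870).

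Jun did not share the pattern of Junb. Jun (ENSMUSG00000052684, mm9 chr4:94715725-94718913), the partner that gives the Fos-Jun dimer its strongest activity, had 1361 and 1400 normalized counts in mouse 4001, 1025 in mouse 4002 and 1268 and 1295 in mouse 4007, with 1420 and 1381 in the WT mouse. All LBR-null libraries but the second of mouse 4001 were below both WT libraries. The mean of 1229 ± 184 (SD, n = 3 mice) was 0.877 times WT, a log2 fold change of -0.20 ± 0.27 (SE) with an interval from -0.84 to 0.44 and a limma adjusted p of 0.729.

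Atf3 (ENSMUSG00000026628, mm9 chr1:192994175-193007219), a stress-induced factor that pairs with Jun proteins and can repress its targets, separated the LBR-null mice more than any of the other 9 genes. It had 153 and 154 normalized counts in mouse 4001, 43.8 in mouse 4002, 49.4 and 71.1 in mouse 4007, and 85.8 and 85.9 in the WT mouse. Mouse 4001 was thus above WT and both others were below it. The LBR-null mean of 85.9 ± 59.2 (SD, n = 3 mice) equalled the WT value of 85.9, while the mean of the log2 values was -0.21 ± 0.70 (SE; limma adjusted p = 0.906). Without mouse 4001 the remaining LBR-null libraries of both Atf3 and Jun lay below WT, 2 of 10 genes against 35.1% of tested genes.

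The EGR factors bind GC-rich sites through 3 zinc fingers and act downstream of growth factor signals. Egr1 (ENSMUSG00000038418) had 392 and 376 normalized counts in mouse 4001, 230 in mouse 4002, 710 and 695 in mouse 4007, and 273 and 294 in the WT mouse. Mouse 4002 was below both WT libraries and the others were above them. The means were 439 ± 241 (SD, n = 3 mice) and 284, with a log2 fold change of 0.48 ± 0.58 (SE) and a limma adjusted p of 0.703. Egr2 (ENSMUSG00000037868, mm9 chr10:66998223-67004936), known for its part in myelination and in lymphocytes, had 29.9 and 33.7 normalized counts in mouse 4001, 16.3 in mouse 4002, 29.8 and 21.9 in mouse 4007, and 15.0 and 7.24 in the WT mouse. These values rest on 19 to 38 reads in an LBR-null library and on 19 and 8 reads in the WT libraries, and the lowest LBR-null library was just above the higher WT library. Its mean was 24.7 ± 7.79 (SD, n = 3 mice) against 11.1, 2.22 times WT, with a log2 fold change of 1.04 ± 0.56 (SE) and a limma adjusted p of 0.374. The WT libraries differed from each other by 0.95 on the log2 scale, about the size of that fold change.

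Ier2 (ENSMUSG00000053560, mm9 chr8:87185230-87186751), an early response gene with a single exon on the same chromosome as Junb, varied least among the LBR-null mice. It had 783 and 571 normalized counts in mouse 4001, 651 in mouse 4002 and 780 and 815 in mouse 4007, with 606 and 555 in the WT mouse. The second library of mouse 4001 fell between the WT libraries, and all others were above both. The means were 708 ± 78.0 (SD, n = 3 mice) and 581, a log2 fold change of 0.28 ± 0.25 (SE; limma adjusted p = 0.599).

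The feedback genes Dusp1 and Zfp36 were the most abundant of the 10 per kilobase of exon and had the same order of mice. Dusp1 (ENSMUSG00000024190, mm9 chr17:26642535-26645464) encodes the phosphatase that inactivates p38, JNK and ERK in the nucleus. It had 2807 and 2917 normalized counts in mouse 4001, 2104 in mouse 4002 and 4243 and 4673 in mouse 4007, with 1871 and 1788 in the WT mouse. All LBR-null libraries were above WT, mouse 4002 by the least and mouse 4007 by more than any other. The mean of 3141 ± 1202 (SD, n = 3 mice) was 1.72 times the WT value of 1830, and the log2 fold change of 0.71 ± 0.42 (SE) had an interval from -0.31 to 1.73 and a limma adjusted p of 0.418.

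Zfp36 (ENSMUSG00000044786, mm9 chr7:29161803-29164274) encodes tristetraprolin, which limits cytokine and immediate early mRNAs. Its libraries held 1893 and 2005 normalized counts in mouse 4001, 1558 in mouse 4002 and 2818 and 3004 in mouse 4007, with 1184 and 1219 in the WT mouse. The order of the mice was that of Dusp1, and no LBR-null library overlapped WT. The mean of 2139 ± 696 (SD, n = 3 mice) was 1.78 times the WT value of 1201, with a log2 fold change of 0.78 ± 0.37 (SE), an interval from -0.11 to 1.68 and a limma adjusted p of 0.322.

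**Figure D2:**
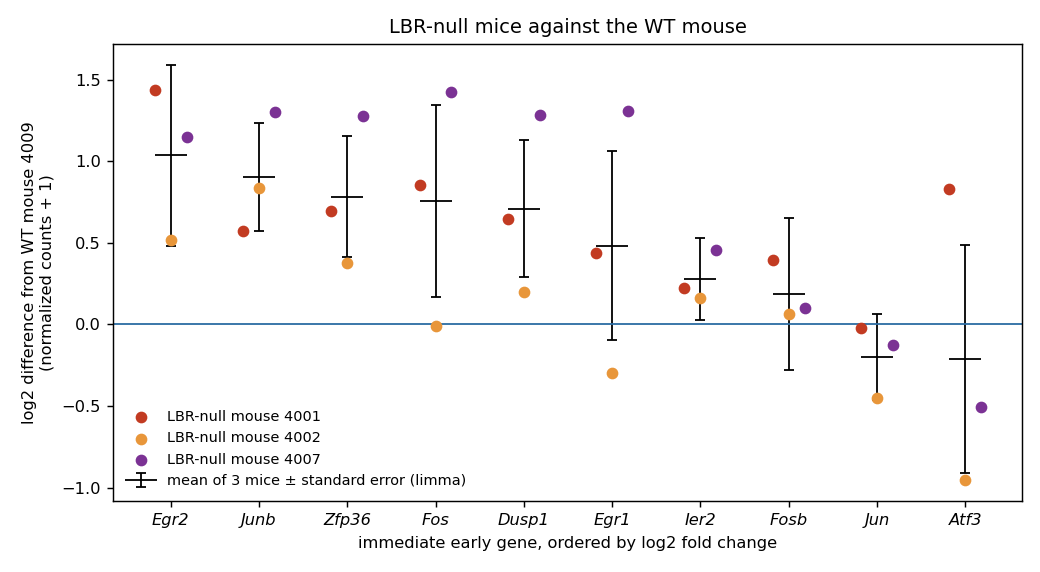
Log2 difference of each LBR-null mouse from the WT mouse, on normalized counts + 1, for the 10 genes in the order of their mean; coloured points are mice, and bars are the mean of 3 mice ± the standard error from limma. The points of mouse 4002 lie lowest in all genes but Junb, from 0.83 in Junb down to -0.95 in Atf3, and those of mouse 4007 reach 1.42 in Fos.

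The LBR-null mice differed widely among themselves. Mouse 4001 had a median log2 difference from WT of 0.61 over the 10 genes, mouse 4002 of 0.11 and mouse 4007 of 1.21, while the median over all tested genes was 0.01 in each mouse. Mouse 4007 had the highest LBR-null level in 6 genes (25.5% of tested genes), mouse 4001 in 4 (40.5%) and mouse 4002 in none (34.0%). Mouse 4002 had the lowest level in 9 of the 10 (34.9% of tested genes), mouse 4001 in 1 (38.4%) and mouse 4007 in none (26.7%). The log2 range over the LBR-null mice ran from 0.29 in Ier2 to 1.79 in Atf3 and exceeded the median range of 0.51, taken over 15981 genes with a mean of at least 10, in 7 of the 10. In 7 genes this range was also wider than the largest difference between 2 libraries of 1 mouse, which is the case for 74.2% of those genes. Without mouse 4002 the median fold change of the 10 was 0.90 on the log2 scale, and without mouse 4007 it was 0.33. That over all tested genes was 0.01 in both cases. Counts of genes with all LBR-null libraries above WT were 5 without mouse 4001 (35.8% of tested genes), 6 without mouse 4002 (29.7%) and 4 without mouse 4007 (28.1%). The 4 genes without overlap remain so in any subset of the libraries, so these counts can only add genes to them.

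Per kilobase of exon, the levels of the 10 genes spanned a wide range within 1 kidney. In the WT mouse Dusp1 (678 normalized counts per kilobase) and Zfp36 (670) were highest and did not differ beyond the difference between their libraries. Jun (439), Ier2 (382) and Junb (316) followed, then Egr1 (91.5), Atf3 (43.3) and Fos (20.2), with Fosb (5.48) and Egr2 (3.27) lowest. In the LBR-null mice the mean level of Zfp36 was 1194 ± 389 (SD, n = 3 mice) and that of Dusp1 1165 ± 446, less than 1 SD apart. Junb stood next at 606 ± 159 normalized counts per kilobase, above Ier2 at 465 ± 51.2 and Jun at 385 ± 57.5, so the order of Junb and Jun was not the same in both groups. Jun was above Junb in the WT mouse, whereas Junb was above Jun in each LBR-null mouse, by 471 to 433 in mouse 4001, 564 to 321 in mouse 4002 and 781 to 402 in mouse 4007. This order depends on the exon lengths used, 3189 bases for Jun and 1807 for Junb. In normalized counts Jun was above Junb in mouse 4001 (1380 against 852) and mouse 4002 (1025 against 1020), as in WT (1401 against 572). In mouse 4007 Junb was above Jun (1411 against 1281).

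The other early genes of the response also had medians above 0, with genes on either side. Among 17 further immediate early transcription factors, 15 could be tested, and Fosl1 and Egr4 were too low. None of the 15 passed limma, 5 were higher and none lower at an unadjusted p under 0.05 (10.7% and 8.05% of all tested genes), and their median log2 fold change was 0.37. Their median difference from WT was 0.93, 0.28 and 0.46 in mice 4001, 4002 and 4007. All 5 LBR-null libraries were above WT in 6 of them and below WT in 3, against 25.5% and 25.7% of all tested genes. Maff, a small Maf protein that pairs with AP-1 family members, had 299 to 642 normalized counts in the LBR-null libraries and 102 and 109 in the WT libraries, a log2 fold change of 1.98 ± 0.42 (SE; limma adjusted p = 0.108). Myc, a driver of growth genes, had 264 to 420 against 130 and 154, a log2 fold change of 1.17 ± 0.32. Fosl2, a Fos relative, had 1437 to 2395 against 884 and 868, a log2 fold change of 1.15 ± 0.33. Klf10, induced early by TGF-beta, had 545 to 670 against 300.04 and 321. DESeq2 called Maff, Myc and Fosl2 higher, with adjusted p-values of 8.84e-04, 0.0352 and 0.0403. This is 3 of the 15, against 3.24% of all genes.

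Of 26 other early response genes, 7 were higher and 1 was lower at an unadjusted p under 0.05 (10.7% and 8.05% of all tested genes), none passed limma, and the median log2 fold change was 0.37. The median difference from WT was 0.34, 0.22 and 0.52 in mice 4001, 4002 and 4007. All LBR-null libraries lay above WT in 12 and below in 4 (25.5% and 25.7% of all tested genes). Pim1, a survival kinase under cytokine control, had 708 to 1070 normalized counts in the LBR-null libraries against 247 and 263 in the WT libraries, a log2 fold change of 1.77 ± 0.29 (SE; limma adjusted p = 0.0906). Gadd45b, a stress-induced activator of MAP kinase cascades, had 547 to 872 against 252 and 264, a log2 fold change of 1.46 ± 0.32. Ppp1r15a, which restores translation after stress, had 806 to 1145 against 418 and 388, a log2 fold change of 1.22 ± 0.26. DESeq2 called these 3 of the 26 higher, against 3.24% of all genes. Cyr61, a secreted target of SRF and YAP, went the other way, with 501 to 1164 against 1382 and 1342. It was not the 1 gene counted above as lower at an unadjusted p under 0.05. The early genes thus did not share 1 direction.

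**Figure D3:**
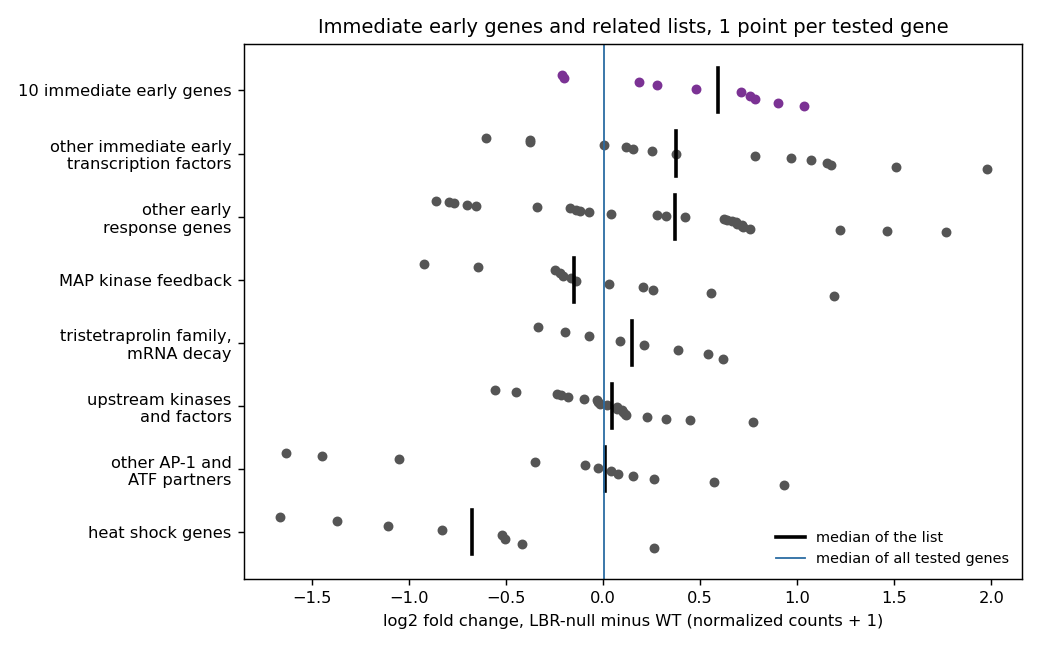
Log2 fold change of LBR-null against WT (normalized counts + 1) for each tested gene of the 10 immediate early genes and of 7 related lists; black bars are list medians and the blue line is the median of all tested genes. The 10 genes have the highest median of these lists (0.60), MAP kinase feedback genes lie around -0.15 and heat shock genes around -0.67.

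The kinases and factors that switch the immediate early genes on had mRNA levels spread around those of WT. Of 20 such genes, 1 was higher and none was lower at an unadjusted p under 0.05 (10.7% and 8.05% of all tested genes), and their median log2 fold change was 0.05. The groups overlapped in 14 of the 20, and all LBR-null libraries were above WT in 2 and below in 4, against 25.5% and 25.7% of all tested genes. Srf, counted above among the immediate early transcription factors because it is also induced, had 597 to 873 normalized counts in the LBR-null libraries and 1117 and 1028 in the WT libraries, all LBR-null libraries below WT (log2 fold change -0.60 ± 0.29 SE, limma adjusted p = 0.327). Creb1 had 977 to 1184 against 1233 and 1371, also without overlap (-0.22 ± 0.23 SE, adjusted p = 0.667). The SRF cofactor Mkl2 had 803 to 1109 against 591 and 535, and the ternary complex factor Elk4 had 212 to 343 against 201 and 167. Map2k2, a kinase that activates ERK, had 1851 to 2468 against 3311 and 3226, and Rps6ka2, a kinase downstream of ERK, had 122 to 163 against 186 and 177.

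Among 12 other inhibitors of the MAP kinase pathway (phosphatases, Sprouty and Spred genes), 5 had a log2 fold change above 0 and 7 below, with a median of -0.15. None was higher and 1 was lower at an unadjusted p under 0.05, where all tested genes gave 10.7% and 8.05%. All LBR-null libraries were above WT in 1 and below in 4 (25.5% and 25.7% of tested genes). The ERK feedback genes Spry4 and Dusp6 had all LBR-null libraries below WT, with 142 to 235 normalized counts against 336 and 356 for Spry4 and 490 to 754 against 956 and 917 for Dusp6. Spry2 was also below, by less, with 315 to 441 against 469 and 466. Dusp4 was the only one of the 12 with all LBR-null libraries above WT, at 57.6 to 306 against 57.5 and 36.2, and its high values were those of mouse 4001.

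Among 8 tested genes of the tristetraprolin family and of mRNA decay, all LBR-null libraries were above WT in 2 and below in 1, against 25.5% and 25.7% of all tested genes, and the median log2 fold change was 0.15. The 2 were relatives of Zfp36, and neither passed limma. Zfp36l1 had 3609 to 4191 normalized counts against 2581 and 2472 in the WT libraries (log2 fold change 0.62 ± 0.25 SE, adjusted p = 0.246), and Zfp36l2 had 1084 to 1573 against 964 and 875 (0.54 ± 0.28 SE, adjusted p = 0.359). Elavl1, which stabilizes the mRNAs that tristetraprolin marks for decay, was below, with 1041 to 1176 against 1336 and 1478. Among 12 other AP-1 and ATF partners the median was 0.01, and all LBR-null libraries were above WT in 3 and below in 3, near the 25.5% and 25.7% of all tested genes. Mafk and Maf were among those above, with 1125 to 1781 against 785 and 711 for Mafk and 2903 to 4292 against 2473 and 2478 for Maf. Batf2 and Batf3, AP-1 proteins of immune cells, were among those below, with 4.59 to 17.3 against 23.6 and 29.9 for Batf2 and 14.9 to 39.6 against 66.1 and 89.6 for Batf3.

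Heat shock genes, which like several immediate early genes answer to stress, had a median below that of all genes. Of 8, none was higher and 2 were lower at an unadjusted p under 0.05 (10.7% and 8.05% of all tested genes). In 6 all LBR-null libraries were below WT (25.7% of tested genes), and the median log2 fold change was -0.67. The chaperone gene Hsph1 had 1115 to 2701 normalized counts against 5463 and 5443 in the WT libraries, Hspa1b 814 to 3097 against 4366 and 4263, Dnaja1 2696 to 3685 against 6670 and 6788, and Hspa8 23204 to 28497 against 43891 and 44301. DESeq2 called Hsph1 and Dnaja1 lower, 2 of the 8, against 3.48% of all genes. The median difference of the heat shock genes from WT was -0.78, -0.59 and -0.75 in mice 4001, 4002 and 4007. Single genes varied more, and Hspa1b differed from WT by -2.34, -0.48 and -1.29 in these mice.

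**Figure D4:**
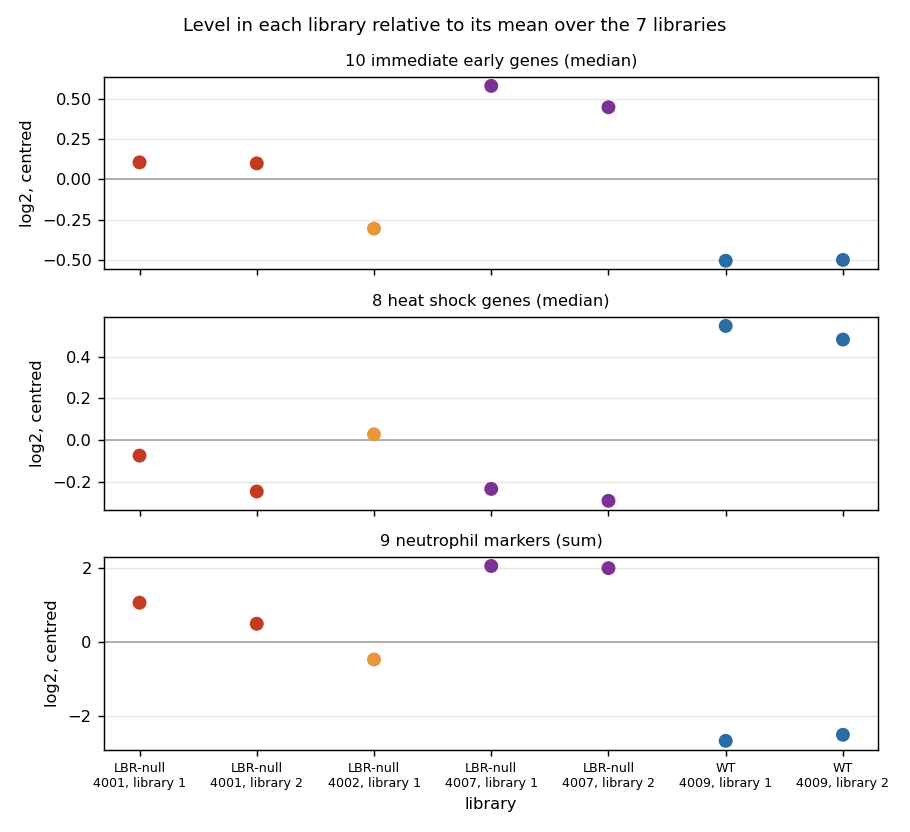
Level in each of the 7 libraries on the log2 scale, relative to the mean over the libraries: the median of the 10 immediate early genes (top), the median of 8 heat shock genes (middle) and the sum of 9 neutrophil markers (bottom). The median of the immediate early genes and the neutrophil sum share the order of the mice, 4007 above 4001, 4002 and WT, which Xist (9940, 5785, 65.3 and 35.5 normalized counts, not plotted) also has, while the heat shock median is highest in WT.

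Markers of several cell types differed in the same comparison. The summed normalized counts of 9 neutrophil markers were 471 in mouse 4002, 922 and 1369 in mouse 4001, 2726 and 2618 in mouse 4007, and 102 and 114 in the WT libraries. This is the order of the mice in the median profile of the 10 genes, which Ier2, Dusp1 and Zfp36, 3 of the 10, also had singly (6.70% of all tested genes). Xist had this order of mice too, with the values given above, and the part of sex in the levels of the 10 genes was not tested. Of the neutrophil markers, 7 of the 9 had all LBR-null libraries above WT (25.5% of all tested genes), with Retnlg and Camp each at 0 in 1 WT library. Macrophage markers were lower in LBR-null libraries (sum 1847 to 2178 against 2964 and 2991, 5 of 5 below WT, where 25.7% of all tested genes are), as were those of the proximal tubule (4 of 5 below WT, with Aqp1 above it in all LBR-null libraries), of podocytes (sum 6622 to 13472 against 16932 and 17023, 3 of 3) and of smooth muscle and pericytes (5786 to 7509 against 12468 and 12236, 4 of 4). The T cell markers had a sum of 63.2 to 92.9 against 163 and 158, with Cd3d and Cd8a below WT and Cd3e above it in all LBR-null libraries, and the endothelial sum was 10655 to 12996 against 13256 and 13202, with 1 of 4 below. Sums of thick ascending limb markers (56904 to 140064 against 68840 and 70315), distal convoluted tubule markers (7124 to 12932 against 12216 and 12128) and collecting duct markers (26952 to 47053 against 28840 and 28398) overlapped between the groups, although Slc12a1 of the thick ascending limb was above WT and Cldn16 and the distal tubule marker Pvalb were below it in all LBR-null libraries. The part of these cell types in the levels of the 10 genes was not tested.

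The median profile of the 10 genes over the 7 libraries was compared with that of 13058 other genes with a mean of at least 50, as the root mean square difference of centred log2 values. Among the 10, Zfp36 (0.121) and Dusp1 (0.138) were closest to their common profile and Atf3 (0.789) was farthest. The most similar other genes were Mocs1 (0.0828), of molybdenum cofactor synthesis, Dnase1 (0.0903), a nuclease, Gpsm1 (0.102), a modulator of G proteins, Ctgf (0.104), a secreted matrix factor that is itself an early response gene, and Prex2 (0.106), an activator of Rac, against a median of 0.503. Dnase1 had 8933, 6880 and 10680 normalized counts in mice 4001, 4002 and 4007 and 5587 in the WT mouse, and Ctgf had 6729, 4781, 9658 and 4007. With 7 libraries from 4 mice, such likeness rests on few independent points and was not tested.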

How the data were processed

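Poly(A) RNA of kidneys was sequenced as paired-end reads in 7 libraries from 4 mice. The authors aligned the reads to mm9 with STAR 2.6.0, and the program and annotation that counted them are not given in the sources used here. The deposited signal per gene symbol is a normalized count, that is, reads divided by the size factor from DESeq2 1.25.1. Dividing by the smallest step of a library gave whole reads, within 0.01 read, for 100% of values.

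Values were averaged per mouse. The main test was limma 3.58.1 in R 4.3.3 (eBayes with trend) on log2(value + 1), for the 17283 genes whose mean reached 5, adjusted by Benjamini-Hochberg over all of them. A call needed an adjusted p under 0.05 and 2-fold. The fit had 2 residual degrees of freedom, all from LBR-null mice, so the WT mouse was taken to be as variable as they were. Intervals of fold changes are 95% intervals. Alternatives were edgeR 4.0.16 and DESeq2 1.42.0 on recovered reads summed per mouse (DESeq2 gave no adjusted p for 671 genes), other pseudocounts, filters and scalings, single libraries, and leaving out a mouse. Scripts were tested on simulated counts of 3 LBR-null mice against 1 WT mouse, with 200 genes changed 4-fold. At a dispersion of 0.1, DESeq2 called 124 of these and 33 unchanged genes, limma 104 and 10, and edgeR 91 and 2. At a dispersion of 0.02 the counts were 193 and 0, 199 and 1, and 200 and 2.

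The 10 genes, the lists and the tests were chosen with earlier results of these data known. The genes named from each list are up to 4 with the largest fold change among those whose libraries did not overlap between groups, besides Srf and Creb1, and the genes of similar pattern are the 5 with the smallest root mean square difference. Gene positions and exon lengths come from GENCODE vM1 on mm9, and promoter windows from RefSeq on GRCm38.p6, with no conversion between builds.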

Additional observations from a re-analysis of the deposited data

Results flagged for a closer look

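In 44 genes named in the text the 5 LBR-null libraries were examined for a library far from the others, and 2 genes had one. The library of mouse 4002 was lowest in Fosl2, with 1437 normalized counts against 2214 to 2395 in the other LBR-null libraries. It was also lowest in Maf, with 2903 against 3943 to 4292. Both values were above the WT libraries. Chance alone gives such a library in about 1 of 20 groups, and since libraries of 1 mouse are not independent, the single library of mouse 4002 is more easily set apart. None of the 10 immediate early genes met this criterion.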

How the results depend on the processing

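Over 14 alternatives, 136 of 140 fold changes of the 10 genes kept their direction and 4 turned: Fos to -0.0075 and Egr1 to -0.30 with mouse 4002 alone, Fosb to -0.076 with the second library of each mouse, and Atf3 to 0.16 without mouse 4002 (range -0.73 to 0.16 when a mouse was left out). None of the 10 was called under the 13 alternatives that give a test, and the lowest adjusted p was 0.0520 for Junb (range 0.0520 to 0.589). The median over the 10 stayed between 0.11 with mouse 4002 alone and 0.90 without it. The count of 2-fold higher genes, 1 as reported, was 0 with a pseudocount of 5, 0 with the first library of each mouse, 0 with mouse 4002 alone, and 1 to 4 when a mouse was left out, the 4 being without mouse 4002. The share of all tested genes at 2-fold was not counted under these alternatives, so these counts cannot be set against other genes. The median of the other early response genes was 0.22 with mouse 4002 alone, against 0.37. Calls over all genes, 0 with limma, were 28 with edgeR, 1117 with DESeq2, 1 with the second library of each mouse, and 0 to 1037 when a mouse was left out (1037 without mouse 4001, 716 without mouse 4002). The cause of these differences was not tested. No paired analysis was possible because rep 1 and rep 2 in the labels number the libraries of a mouse, not animals matched between groups. The counts without each mouse of genes with no overlap were chosen after seeing the data. At this depth Fosb and Egr2 rest on 8 to 38 reads a library, which limits them more than the other 8 genes.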
